A study of Mus musculus with 20 samples.

Results

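The bridge-like lipid transfer proteins were followed through an experiment that asked which neuronal RNAs are bound by FMRP, the RNA-binding protein made from Fmr1. The family was taken by gene name and comprised 10 of the 21264 genes on the array: 2610507B11Rik (now Bltp2), 4932438A13Rik (now Bltp1), Uhrf1bp1 (now Bltp3a), Uhrf1bp1l (now Bltp3b), Vps13a, Vps13b, Vps13c, Vps13d, Atg2a and Atg2b. These 10 genes had 32 of the 24551 features, a feature being the group of probes summarised to 1 value. Of these, 19 belonged to 4932438A13Rik, 2 each to Uhrf1bp1l, Vps13a, Vps13d and Atg2b, and 1 to each of the other genes. Features of 1 gene report on the same transcripts and are not replicates. The family was chosen by a measured value, the wild-type minus knockout difference in CLIP, in which 2610507B11Rik had been seen to stand high. That difference, and what contains it, is therefore given as a description without a test.

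Cortical neurons from C57Bl6 mouse embryos at day 17 of gestation were grown for 8 days in vitro and irradiated at 254 nm to crosslink proteins to RNA. Cultures were wild type (Wt) or Fmr1 knockout (FMR1-KO), 5 cultures of each genotype. From each of the 10 cultures, total RNA (Input) and RNA recovered with FMRP (CLIP) were put on separate arrays, making 4 groups of 5 arrays. Both genotypes were crosslinked and carried through the same procedure, so knockout CLIP measures what was recovered without FMRP. The labels give no cell sorting, no sex of the embryos and no statement on how many embryos a culture pooled. Values were log2 signals. Each CLIP value is a position within the RNA recovered from that culture and not an amount of precipitate, because the RNA was amplified and the arrays were brought to similar medians.

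Bridge-like lipid transfer proteins are long rods with a hydrophobic groove along their length, through which lipids pass in bulk between membranes that lie close together. They stand at contacts of the endoplasmic reticulum with other organelles, and they serve membrane growth, organelle shape and vesicle recycling. BLTP2 is the mammalian relative of fly hobbit and acts at contacts of the endoplasmic reticulum with the plasma membrane. BLTP1 is the relative of fly tweek, which is needed there for recycling of synaptic vesicles. The VPS13 proteins each work at their own organelles, and the ATG2 proteins feed lipid to the growing autophagosome.

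Fmr1 itself read 5.69 ± 0.20 in wild-type Input and 4.14 ± 0.16 in knockout Input (SD, n = 5 each; exact permutation test, two-sided p = 0.00794, the smallest that 5 against 5 arrays allow). Array medians ran from 5.30 to 5.44. The 8 neuron markers had Input means between 5.92 and 11.55, and none of the neuron, astrocyte, oligodendrocyte, microglia, vascular or cycling progenitor markers passed limma at an adjusted p under 0.05 in either comparison of the genotypes. At an unadjusted p under 0.05, Input had 1 astrocyte and 1 cycling progenitor feature higher in knockout. CLIP had 1 neuron and 2 astrocyte features lower and 1 oligodendrocyte and 1 cycling progenitor feature higher in wild type. Over all features, 3.86% had such a p in Input and 7.15% in CLIP, in either direction.

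In CLIP, 2610507B11Rik was the member with the highest wild-type over knockout difference, and its groups lay well apart. Wild-type CLIP read 9.66, 9.22, 9.79, 9.26 and 9.47 in cultures 1 to 5. Knockout CLIP read 8.44, 8.47, 8.51, 8.42 and 8.23. Every wild-type array lay above every knockout array, and the means were 9.48 ± 0.25 and 8.41 ± 0.11 (SD, n = 5 each). The difference was 1.07 on the log2 scale, or 2.09-fold, and ranked 5 among all 24551 features. With any 1 array left out it lay between 0.99 and 1.13, which describes the same arrays that led to the choice.

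4932438A13Rik was higher in wild type at all of its features. The 19 features of 4932438A13Rik differed by 0.10 to 0.82 in CLIP, with a median of 0.49, and 1 of them, 10491603, turned to −0.02 without culture 4 of knockout CLIP. At the feature with the widest gap (10491611), wild-type CLIP read 8.02, 7.68, 8.17, 7.88 and 8.11. Knockout CLIP read 7.19, 7.40, 6.89, 7.02 and 7.28 at the same feature. These groups did not overlap, which held for 7 of the 19 features in all, against 1.35% of all features. The 19 features report on 1 gene, and the count is a description. Averaged over the 19 features, wild-type CLIP read 8.17, 7.81, 7.96, 8.16 and 8.33, and knockout CLIP read 7.79, 7.73, 7.66, 7.05 and 7.68. Culture 4 was the lowest knockout CLIP array in this average, and it was the lowest at 16 of the 19 features.

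The BLTP3 genes encode proteins of endosomal and Golgi-derived vesicle traffic. At feature 10365658 of Uhrf1bp1l, wild-type CLIP read 8.33, 7.94, 8.23, 8.24 and 8.20. Knockout CLIP read 7.68, 7.61, 7.40, 7.52 and 7.44, so that all wild-type arrays again lay above all knockout arrays, with a difference of 0.66. The other feature of Uhrf1bp1l (10371842) differed by 0.23 and its groups overlapped. Uhrf1bp1 differed by 0.24 with overlapping groups.

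**Figure D1:**
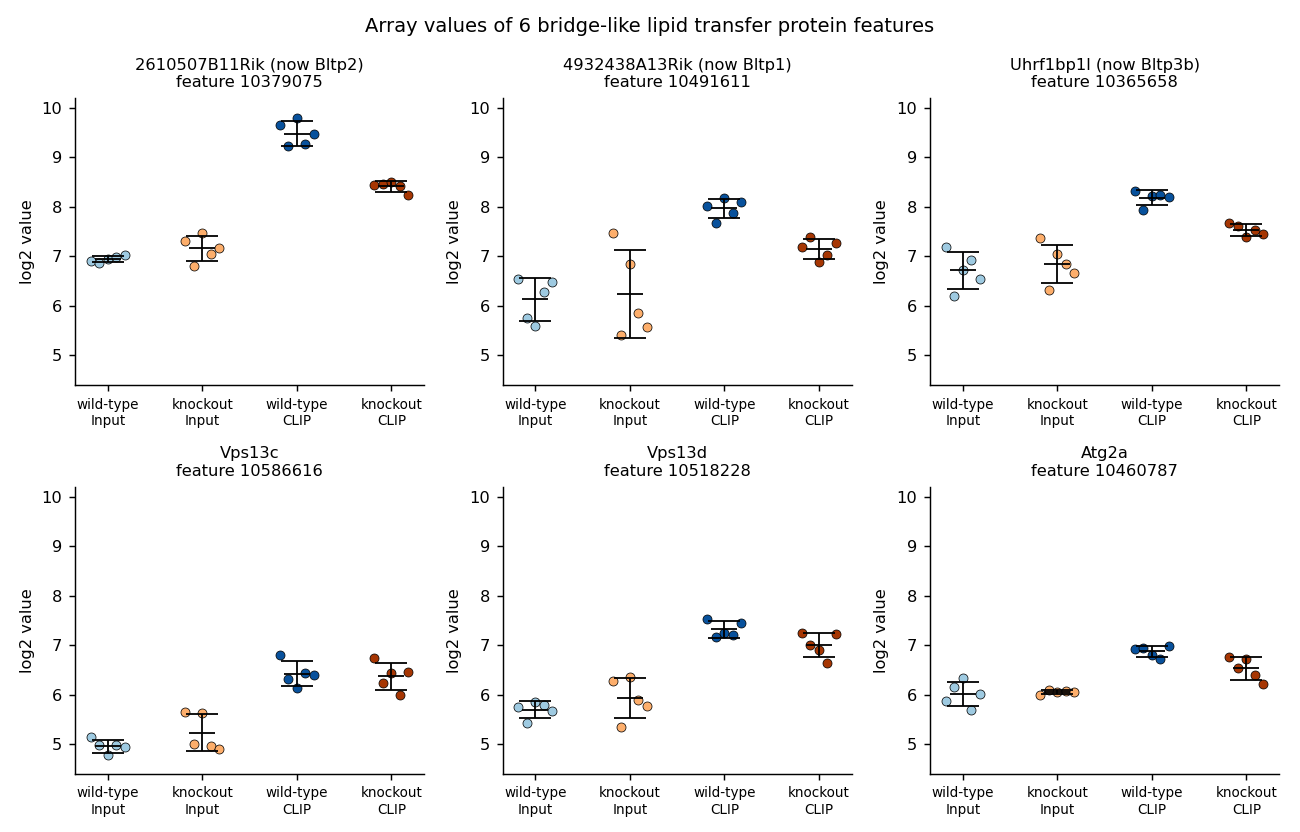
Log2 signal of 6 member features in every array, by group (wild-type and knockout Input, wild-type and knockout CLIP); points are the 5 cultures of a group and bars the mean with its SD. For 2610507B11Rik the CLIP groups lie apart (8.23 to 8.51 in knockout, 9.22 to 9.79 in wild type), whereas for Vps13c they overlap and every CLIP array lies above every Input array.

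Among the VPS13 genes the CLIP groups overlapped at every feature. Vps13d, whose protein is needed for the upkeep of mitochondria and peroxisomes, had the widest gap of this branch. At its feature 10518228, wild-type CLIP read 7.53, 7.16, 7.24, 7.19 and 7.44, and knockout CLIP read 7.24, 7.01, 6.91, 6.64 and 7.22. The difference was 0.31, and 0.26 at the other feature of Vps13d. Vps13a, whose protein chorein joins the endoplasmic reticulum to mitochondria, differed by 0.15 at feature 10466441. Its other feature, 10461867, had low group means, between 4.06 and 4.17, and differed by 0.09. Whether low signal narrows differences was not tested. Vps13b, of the Golgi, differed by 0.13, and by 0.01 without culture 4 of knockout CLIP and 0.23 without culture 2 of wild-type CLIP. Vps13c, at contacts with late endosomes and lysosomes, differed by 0.05, and this fell to −0.05 without culture 1 of wild-type CLIP and to −0.05 without culture 4 of knockout CLIP.

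Of the ATG2 genes, Atg2a had the wider gap. For Atg2a, wild-type CLIP read 6.92, 6.94, 6.79, 6.71 and 6.98, and knockout CLIP read 6.76, 6.54, 6.72, 6.4 and 6.22. Knockout cultures 1 and 3 lay above the lowest wild-type array, the others below all of them, and the difference was 0.34. The features of Atg2b differed by 0.22 and 0.09.

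Over the family, 32 of 32 features were higher in wild-type than in knockout CLIP, against 55.9% of all features, with a median difference of 0.41 against 0.02. Without culture 4 of knockout CLIP, 30 of 32 were higher and the median was 0.30. With 1 value per gene, which gives 4932438A13Rik the weight of 1 member, the median was 0.27. The groups did not overlap at 9 member features of 3 genes (2610507B11Rik, 4932438A13Rik and Uhrf1bp1l), against 1.35% of all features. These shares only describe values that led to the choice of the family, and nothing is read from them.

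**Figure D2:**
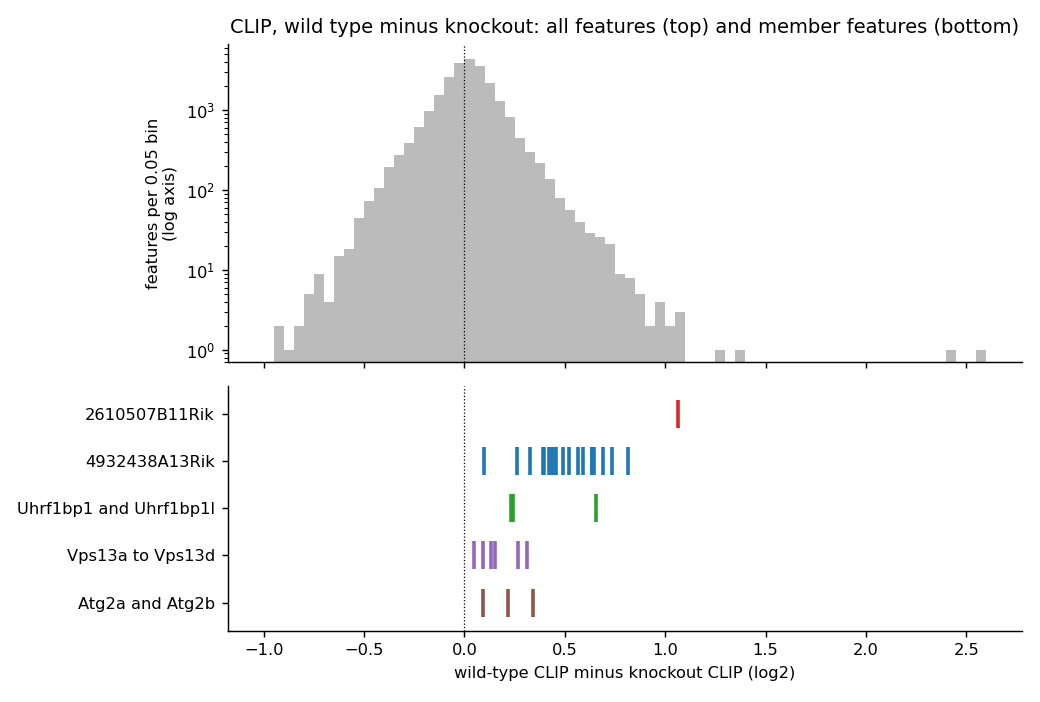
Wild-type minus knockout CLIP (log2) for all 24551 features as a histogram on a log axis, with each member feature marked in a row for its gene below. The mark of 2610507B11Rik stands at 1.07, the 19 marks of 4932438A13Rik spread from 0.10 to 0.82, and all member marks lie above 0.

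The question of what was recovered without FMRP is answered by knockout CLIP against Input of the same knockout cultures. Most of the family was richer in knockout CLIP than in Input, including genes with little difference between the genotypes. By limma on all 20 arrays, 26 of 32 member features from 9 of the 10 genes were higher at an adjusted p under 0.05, against 16.2% of all features. One feature was lower, against 19.7% of all features. All knockout CLIP arrays lay above all knockout Input arrays at 11 member features of 8 genes, against 10.3% of all features, and 31 of 32 member features were above 0, against 36.2%. The median member difference was 0.94, and the median of all features was −0.13. Knockout CLIP arrays also enter the genotype difference that led to the choice of the family, so these tests are not independent of that choice. A choice of high wild-type over knockout values favours low knockout CLIP values, and the size of that effect was not tested.

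2610507B11Rik rose from 7.16 ± 0.26 in knockout Input to 8.41 ± 0.11 in knockout CLIP (SD, n = 5). The knockout Input arrays read 7.30, 6.80, 7.48, 7.04 and 7.17, all below the lowest knockout CLIP array. The difference was 1.26 (SE 0.12, 95% interval 1.00 to 1.51, limma adjusted p = 2.44e-07), or 2.39-fold. Within cultures 1 to 5 it was 1.14, 1.67, 1.03, 1.38 and 1.06.

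For 4932438A13Rik, 17 of 19 features passed limma as higher in knockout CLIP than in Input, against 16.2% of all features. These 19 features report on 1 gene. Their differences were all above 0 and ran from 0.13 to 1.60 with a median of 1.02. Those that did not pass were 10491601, with a difference of 0.96 (limma adjusted p = 0.0605), and 10491615, with 0.13 (limma adjusted p = 0.623). The average of the 19 features read 7.28, 5.81, 7.0, 6.31 and 6.33 in knockout Input, against 7.05 to 7.79 in knockout CLIP. Knockout Input of culture 1 lay inside the range of knockout CLIP. Of the 17 calls, 11 held when each of the 10 knockout arrays was left out in turn. Across the 19 features, those with higher wild-type Input had higher knockout CLIP over Input (Pearson r = 0.698), while the genotype difference in CLIP followed Input less (r = 0.146); these are descriptions over features of 1 gene.

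At their leading features, Vps13b, Vps13c and Vps13d rose in knockout CLIP to near the median of the 19 features of 4932438A13Rik (1.02). The highest of those 19 features rose further, by 1.60. Vps13c rose by 1.14 (SE 0.16, limma adjusted p = 1.75e-05), or 2.21-fold. Vps13b rose by 1.09 (SE 0.14, limma adjusted p = 6.76e-06). Vps13d rose by 1.08 at feature 10518228 (SE 0.16, limma adjusted p = 2.47e-05) and by 0.38 at feature 10518226 (SE 0.12, limma adjusted p = 0.0208), the second call being lost without 1 of the arrays in 3 of 10 refits. Vps13a rose by 0.75 at feature 10466441 (SE 0.20, limma adjusted p = 0.00564), and its dim feature differed by 0.02 (limma adjusted p = 0.881).

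Uhrf1bp1 rose by 0.63 (SE 0.11, limma adjusted p = 2.00e-04) and Atg2a by 0.47 (SE 0.12, limma adjusted p = 0.00396). Atg2b was the gene with no feature past the threshold, with differences of 0.40 (limma adjusted p = 0.0924) and 0.07 (limma adjusted p = 0.666). The features of Uhrf1bp1l disagreed. Feature 10365658 rose by 0.68 (SE 0.17, limma adjusted p = 0.00386), whereas 10371842 fell by 0.37 (SE 0.14, limma adjusted p = 0.0421). The fall lost its call without culture 2, 3 or 5 of knockout Input or culture 1, 2 or 5 of knockout CLIP, with adjusted p up to 0.134. With 1 value per gene the median was 0.68 and 8 of 10 members were higher, against 16.1% of all genes, and Uhrf1bp1l (0.16, adjusted p = 0.190) and Atg2b (0.24, adjusted p = 0.186) were not.

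**Figure D3:**
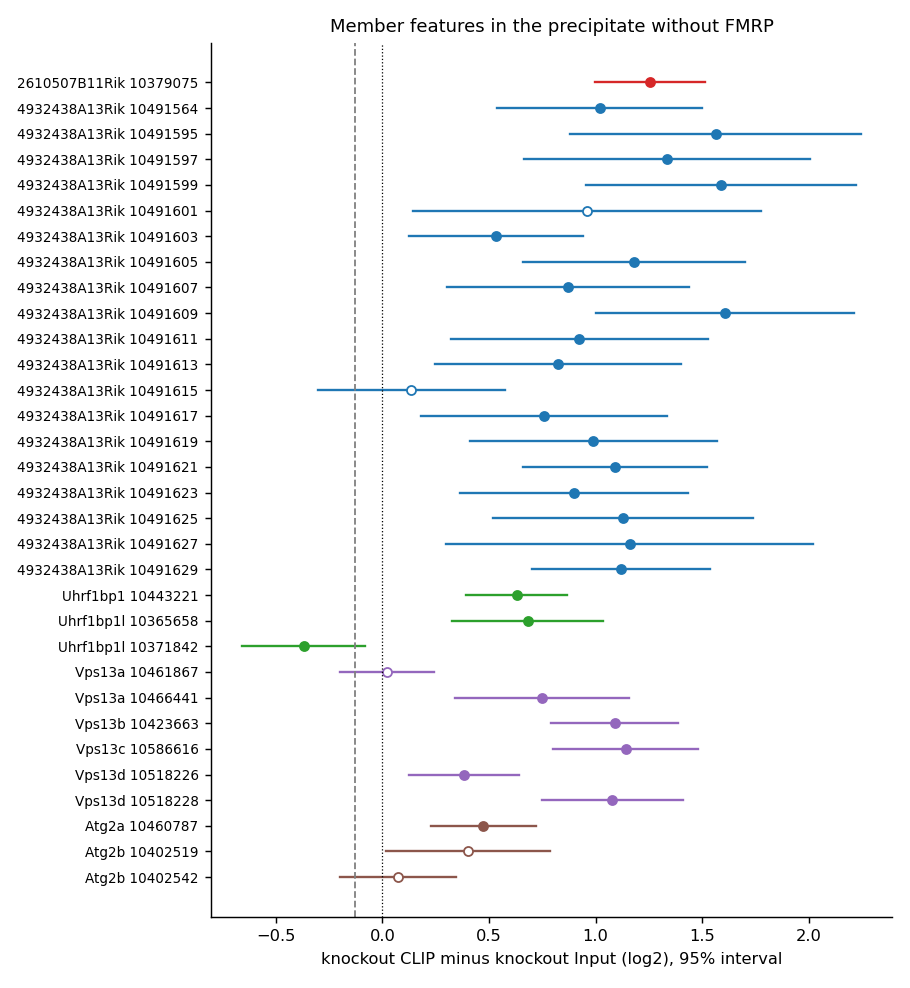
Knockout CLIP minus knockout Input (log2) for the 32 member features, with 95% intervals from limma on 20 arrays; filled points have an adjusted p under 0.05 and the dashed line is the median of all features at −0.13. Filled points lie to the right for 9 genes, and 10371842 of Uhrf1bp1l is the filled point to the left of 0.

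Of the cell type markers in this comparison, 3 of 7 astrocyte features fell (Slc1a3 by −0.84, S100b by −0.77 and Aldh1l1 by −0.48) and none rose, where 19.7% of all features fell and 16.2% rose. Their summed log2 level ran from 43.1 to 44.8 in knockout Input and from 39.7 to 42.4 in knockout CLIP, and their lowest mean was 3.76 in knockout CLIP, with 1 feature under 4. Among the 8 oligodendrocyte features 3 fell and none rose, with summed levels of 47.1 to 49.1 in Input and 45.3 to 46.7 in CLIP. Among the 7 microglia features 2 fell and none rose, with summed levels of 31.5 to 34.8 and 31.2 to 32.3. Of the 6 vascular features 1 fell, and of the 8 cycling progenitor features 2 rose and 1 fell. Of the 8 neuron markers, 3 rose and 1 fell, and the summed level ran from 62.9 to 67.4 in knockout Input and from 67.4 to 69.0 in knockout CLIP. The part of these shifts in the members' enrichment was not tested.

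In wild-type cultures the same comparison gave larger values, which contain the wild-type CLIP arrays of the genotype difference and are a description. Wild-type Input of 2610507B11Rik read 6.90, 6.86, 6.95, 6.98 and 7.03, so that CLIP exceeded Input by 2.75, 2.36, 2.84, 2.29 and 2.44 within cultures 1 to 5. The mean excess of 2.54, or 5.80-fold, ranked 9 among all features. The 19 features of 4932438A13Rik exceeded Input by 0.78 to 2.06, with a median of 1.82. Vps13d reached 1.62 at feature 10518228, Uhrf1bp1l 1.47 at feature 10365658, Vps13c 1.46, Vps13b 1.38 and Vps13a 0.98 at feature 10466441. Atg2a reached 0.86, Atg2b 0.88 at its higher feature and Uhrf1bp1 0.85. All wild-type CLIP arrays lay above all wild-type Input arrays at 26 of 32 member features, against 12.5% of all features. The median excess was 1.47, with −0.09 for all features, and 0.95 with 1 value per gene. Feature 10371842 of Uhrf1bp1l was the member feature below Input, by −0.14.

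The excess of wild-type over knockout enrichment, the interaction of genotype and fraction, again contains the difference used for the choice. For 2610507B11Rik it was 1.28 and ranked 6 among all features, with a range of 1.20 to 1.37 when each array was left out. It ran from 0.19 to 0.98 over the features of 4932438A13Rik. It was 0.79 and 0.23 for the features of Uhrf1bp1l and 0.54 and 0.07 for those of Vps13d, and it was 0.39 for Atg2a and 0.32 for Vps13c. All 32 member features were above 0, against 55.3% of all features; the count was 30 after quantile normalization and 31 after median centring.

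**Figure D4:**
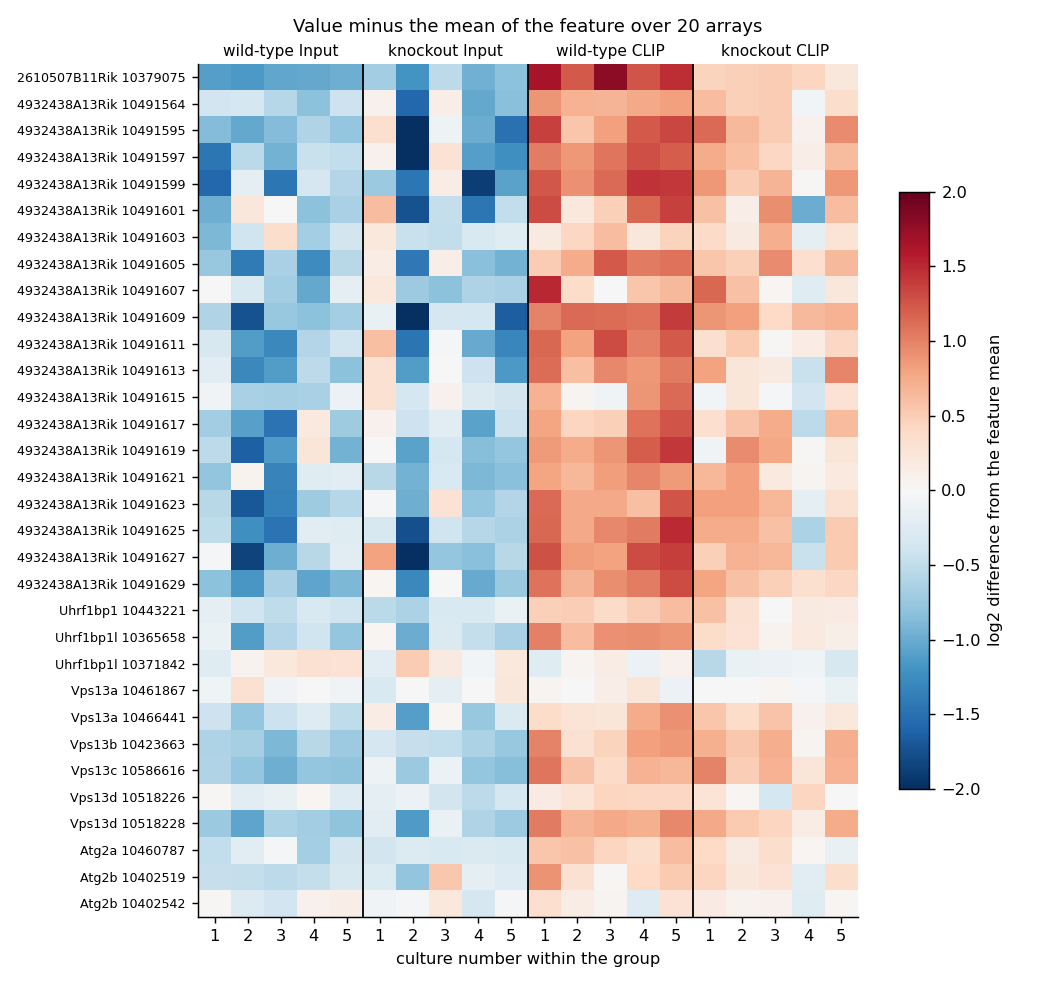
Log2 signal of the 32 member features (lines of the map) in the 20 arrays (columns, grouped), each feature centred on its own mean over the arrays; colours run from −2 to 2. CLIP columns are mostly above the feature mean and Input columns below it, and within 4932438A13Rik culture 2 of knockout Input and culture 4 of knockout CLIP are low.

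Total RNA tells whether the members' own levels differed between the genotypes, and these arrays had no part in the choice. No member feature passed limma in Input (0 of 32 higher, against 0% of all features, and 0 of 32 lower, against 0.00407%, which is Fmr1 alone), and at an unadjusted p under 0.05 there were also 0 of 32, against 3.86% of all features. Knockout lay above wild type at 19 of 32 features, against 52.6% of all, with a median difference of 0.06. The groups overlapped at every member feature (0 of 32 with all knockout arrays above, against 0.273% of all features, and 0 of 32 below, against 0.424%).

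For 2610507B11Rik, knockout Input exceeded wild-type Input by 0.22 (95% interval −0.07 to 0.50, limma adjusted p = 1.00; exact permutation test, two-sided p = 0.119, n = 5 each). The SD was 0.26 in knockout and 0.07 in wild type. With 1 value per gene, the interval was −0.41 to 0.58 for 4932438A13Rik, −0.09 to 0.63 for Vps13c, −0.10 to 0.41 for Vps13b and −0.17 to 0.46 for Atg2b. It was −0.29 to 0.24 for Uhrf1bp1, −0.19 to 0.32 for Uhrf1bp1l, −0.27 to 0.28 for Vps13a, −0.25 to 0.28 for Vps13d and −0.23 to 0.32 for Atg2a. Changes inside these intervals remain compatible with the values of 5 cultures a group, and the intervals are not a limit of detection. In bulk RNA fewer cells of a type and less RNA per cell cannot be told apart. Feature 10518226 of Vps13d, with a difference of −0.20, had the lowest exact p of the member features (0.0794, two-sided permutation test, not adjusted over the 32).

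Input of 4932438A13Rik was uneven among the knockout cultures. Averaged over its 19 features, wild-type Input read 6.53, 6.25, 6.27, 6.59 and 6.65, and knockout Input 7.28, 5.81, 7.0, 6.31 and 6.33. Culture 1 or 3 was the highest knockout Input array at all 19 features (14 and 5), and culture 2 was the lowest at 13. The SD was larger in knockout than in wild type at 14 of the 19. Over the 13 member features of the other genes, knockout Input averaged 5.79, 5.50, 5.90, 5.58 and 5.67, with cultures 1 and 3 again highest and culture 2 lowest. Without culture 2 of knockout Input the median member difference in Input rose to 0.26 with 26 of 32 features above 0, and without culture 3 it was −0.01 with 15 above 0; no feature passed limma in either case. Culture 2 of knockout Input also had the highest array median, 5.44.

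**Figure D5:**
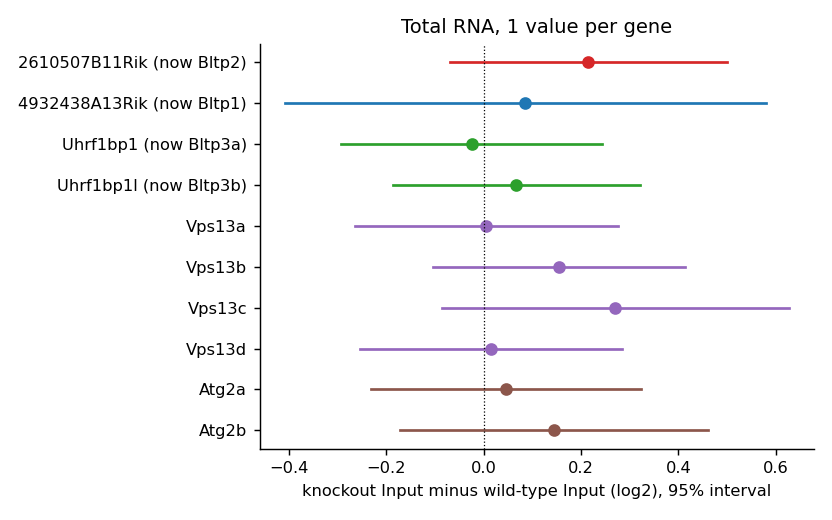
Knockout minus wild-type Input (log2) for the 10 members, 1 value per gene with its 95% interval from limma on 10 arrays. All 10 intervals include 0, and that of 4932438A13Rik is the widest, from −0.41 to 0.58.

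The features whose values followed 2610507B11Rik most closely over the 20 arrays were Spnb3 (Pearson r = 0.985), Pcnx (0.982), Nelf (0.981), Ppfia3 (0.979) and Map3k10 (0.977). The arrays fall into 4 groups, with CLIP and Input taken from the same cultures, so a high r mostly repeats the order of the group means. Each of these 5 was higher in wild-type than in knockout CLIP, by 0.52 to 0.77, and each was below 2610507B11Rik in that difference. Among the other member features, r with 2610507B11Rik ran from −0.36 at 10371842 of Uhrf1bp1l to 0.945 at 10491629 of 4932438A13Rik.

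Genes that work with the family were looked at as lists. The partners of the bridge-like proteins, such as membrane anchors and scramblases, numbered 20 genes with 22 features. In knockout CLIP over Input, 2 of 22 rose, against 16.2% of all features, and 2 fell, against 19.7%, with a median of −0.11 against −0.13. The mitochondrial GTPase Rhot2 rose by 0.93 (limma adjusted p = 4.37e-05) and Mospd3, of the family of endoplasmic reticulum anchors, by 0.56 (limma adjusted p = 0.00669). Vapa, the anchor that binds FFAT motifs, changed by −0.94 (limma adjusted p = 7.35e-04) and Fkbp8, of the outer mitochondrial membrane, by −0.53 (limma adjusted p = 0.0029). In CLIP between genotypes 0 of 22 passed limma, and without adjustment 1 had a p under 0.05, Rab5a, lower in wild type at −0.38 (adjusted p = 0.300). That is 4.55% of the 22 features, against 7.15% of all features in either direction.

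Lipid transfer proteins that carry single lipids in a box-like fold were the nearest comparison by task, with 39 genes of 1 feature each. In knockout CLIP over Input, 20 of 39 rose, against 16.2% of all features, and 1 fell, against 19.7%, with a median of 0.33 against −0.13. Those of lowest p were the sterol carriers Gramd1b (1.02, limma adjusted p = 2.11e-06) and Osbpl6 (0.89, limma adjusted p = 1.68e-04), C2cd2l of endoplasmic reticulum contacts with the plasma membrane (0.85, limma adjusted p = 1.96e-05) and the ceramide carrier Col4a3bp (0.71, limma adjusted p = 4.01e-04). Stard10 was the 1 that fell, by −0.50 (limma adjusted p = 0.00529). In CLIP between genotypes 0 of 39 passed limma, with a median of 0.04. At an unadjusted p under 0.05, 4 were higher and 0 lower in wild type (10.3%, against 7.15% of all features in either direction). Pdzd8 (0.48, adjusted p = 0.157) and Pitpnm2 (0.43, adjusted p = 0.152) were the highest of these that the naming rule took.

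The core genes of autophagosome formation, on which ATG2 proteins act, had 24 genes with 28 features. In knockout CLIP over Input, 10 of 28 features rose, against 16.2% of all, and 6 fell, against 19.7%, with a median of 0.17 against −0.13. Those that fell included the small ubiquitin-like proteins Map1lc3a (−0.93, limma adjusted p = 2.05e-06), Gabarap (−0.85, limma adjusted p = 6.96e-06) and Gabarapl2 (−0.58, limma adjusted p = 9.86e-04), while Atg16l1, which places them on membranes, rose by 0.57 (limma adjusted p = 6.02e-04). In CLIP between genotypes 0 were higher and 1 was lower in wild type, Atg13 of the ULK1 complex (−0.49, limma adjusted p = 0.0458). The kinase Ulk2 stood at 0.64 without passing (limma adjusted p = 0.0997). Counted without adjustment at a p under 0.05, 1 was higher and 1 lower (7.14%, against 7.15% of all features in either direction). Over all features, limma called 25 higher and 2 lower in this comparison. None was called lower after quantile normalization, median centring or the filter at 4, with an intensity trend, or with the replicate block. The Atg13 call was therefore lost under each of these. It was also lost without any single CLIP array other than culture 4 of knockout. Without that array 4 features were called lower, and with 1 value per gene 2 genes were. In Input no feature of the 3 lists passed limma, where 0 of all features were called higher and 1 lower in knockout. At an unadjusted p under 0.05 there was 1, a partner lower in knockout, where 3.86% of all features had such a p.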

How the data were processed

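The values are the authors' deposited log2 signals after RMA in Affymetrix Expression Console 1.1, per the submitters' processing notes. The labels name 1 array type, and give no genome build. The table held 24551 features after 7 foot lines were left out. All 32 member features carried the authors' mark for signals above 4 in at least 2 arrays, and none was marked as cross-hybridising. Symbols of all 32 matched the RefSeq gene table, 30 of them also by accession, which gave the current names.

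Tests used limma 3.58.1 under R 4.3.3 (lmFit and eBayes, two-sided, Benjamini-Hochberg adjusted over 24551 features, threshold 0.05). Genotypes were compared within Input and within CLIP on 10 arrays each. CLIP minus Input and the interaction were contrasts over 20 arrays. For single values in Input, exact permutation tests ran over all splits of 5 against 5 arrays. The fits were tested on simulated data. Python 3.11.15 with pandas 2.3.3, numpy 2.4.6 and matplotlib 3.10.9 did the rest. Where 1 value per gene is given, features of a symbol were averaged before the fit, and p-values were adjusted over 21264 genes.

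Within a genotype, CLIP and Input arrays that share a number came from 1 culture, per the design text and the authors' ratio columns (largest difference 0). Their residuals correlated at 0.243, 0.260, 0.259, 0.0908 and 0.0599 in wild type and at 0.221, −0.128, 0.224, 0.455 and 0.0688 in knockout. Between genotypes the cultures share only a number. P-values between genotypes measure the spread between 5 cultures a group. Those of CLIP minus Input use 1 spread pooled over the 4 groups. In Input the SD was larger in knockout at 14 of the 19 features of 4932438A13Rik. At its feature 10491595 the SD was 1.03 in knockout Input and 0.40 in knockout CLIP, against 0.15 and 0.36 in wild type. The pooled spread at that feature is narrower than that of the knockout arrays alone, and its effect on the p-values was not tested. There the shared culture of CLIP and Input enters only in the replicate block, an alternative setting. The number of arrays limits the precision.

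Members and lists were chosen with earlier results of these data known. Every member is accounted for. Values by array are given for 2610507B11Rik, for the feature of widest CLIP difference in each branch and, chosen after their values were seen, for the leading features of 4932438A13Rik and Uhrf1bp1l. Up to 4 genes of lowest p are named per list and comparison, and the 5 features most correlated with 2610507B11Rik. The astrocyte genes named fall under the same rule. Alternatives were quantile normalization, median centring, the filter at 4, an intensity trend, 1 value per gene, the replicate block and leaving out each array.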

Additional observations from a re-analysis of the deposited data

Results flagged for a closer look

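Dixon's criterion (gap over range above 0.71) was applied to 128 combinations of member feature and group of 5 arrays. By it, 7 values stood apart from the other 4 of their group. Chance gives about 1 in 20, and 7 of 128 is near that. Of the 7, 5 concerned 4932438A13Rik, which has 19 of the 32 member features. Its feature 10491607 was high in knockout Input of culture 1, at 6.19 against 5.16 to 5.35. Its feature 10491609 was low in wild-type Input of culture 2, at 6.31 against 7.24 to 7.45. Its feature 10491625 was low in knockout Input of culture 2, at 5.65 against 6.78 to 7.08, and in knockout CLIP of culture 4, at 6.78 against 7.93 to 8.16. Its feature 10491627 was low in knockout CLIP of culture 4, at 7.31 against 8.25 to 8.47. Feature 10402542 of Atg2b was low in that same array, at 4.72 against 5.00 to 5.12. Feature 10461867 of Vps13a was high in wild-type Input of culture 2, at 4.42 against 4.03 to 4.12, where signals are low.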

How the results depend on the processing

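With the numbers as a replicate block, knockout CLIP over Input gave 27 member features higher in place of 26. In CLIP between genotypes the features higher in wild type over the whole table fell from 25 to 3, and those lower from 2 to 0. Between genotypes, same-numbered residuals correlated at 0.442, 0.190, −0.139, −0.0852 and −0.0748 in CLIP and at 0.547, 0.362, −0.266, −0.144 and −0.0580 in Input, and 1 of 10 CLIP arrays and 4 of 10 Input arrays correlated best with their own number. The feature lower in knockout CLIP than in Input, 10371842 of Uhrf1bp1l, was not called with an intensity trend (0 lower), and its count ranged from 0 to 1 when each array was left out. The count higher in knockout CLIP was 22 after quantile normalization and ranged from 20 to 27 over single arrays left out, with 20 without culture 1 of knockout CLIP. Quantile normalization moved the median of all features in that comparison from −0.13 to −0.02; relative to it the member median was 0.86, against 1.07 as deposited. The Input count stayed at 0 under every array left out. Of the 32 member features, leaving out 1 array turned the direction of 2 in CLIP, 16 in Input, 1 in knockout CLIP over Input, 1 in wild-type CLIP over Input and 3 in the interaction. Those in CLIP were 10491603 of 4932438A13Rik (−0.02 without culture 4 of knockout CLIP) and Vps13c (range −0.0489 to 0.14 over single arrays left out; −0.0489 without culture 1 of wild-type CLIP and −0.0458 without culture 4 of knockout CLIP). Those in Input included feature 10491611 of 4932438A13Rik (range −0.21 to 0.31; −0.03, −0.21 and −0.05 without culture 3 of wild type and cultures 1 and 3 of knockout) and Atg2a (range −0.0357 to 0.13, the lowest without culture 4 of wild type). The cause was not tested. Whether signals near 4 compress differences was not tested either, and 5 cultures a group limit what Input can show.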
